A study of Mus musculus with 18 samples.

Results

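Del(i9-13) is a mutation of the mouse HoxB cluster, carried in homozygous form by 3 E10.5 embryo libraries among the 18 libraries of the series. These 3 libraries were compared with the 9 libraries of all other E10.5 genotypes. Those were embryos homozygous for HoxB Del(i9-13) together with Hoxb13hd, embryos homozygous for Hoxb13hd alone, and wild-type littermates, with 3 libraries each. Embryos were sequenced without the head. The E10.5 libraries were ribo-depleted, and a further 6 libraries (Del(i9-13) and wild type at E9.5) were poly(A)-enriched. The labels explain neither the letters hd nor whether a replicate was 1 embryo or a pool, and the p-values measure the spread between libraries.

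Hox genes encode homeodomain transcription factors that set the identity of body levels along the axis, and in each cluster they switch on in order from the 3′ to the 5′ end. Hoxb13 lies at the 5′ end of HoxB, set off from Hoxb9 by a long interval without other Hox genes, and in mice it acts late in the tail bud, where its loss lengthens the tail. In chick embryos, genes of Hox group 13 are known to slow axis extension and to lower posterior Wnt signalling. Of the 4 E10.5 genotypes, Del(i9-13) alone combined raised Hoxb13 RNA with an allele not labelled hd.

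A gene was counted as apart when its level lay above all 9 other libraries in each of the 3 Del(i9-13) libraries, or below all 9 in each. Levels are CPM (counts over the TMM-adjusted library size). A gene was called when edgeR's quasi-likelihood test of Del(i9-13) minus the mean of the 3 other genotypes gave a Benjamini-Hochberg adjusted p under 0.05 over all 17202 genes tested. Log2 differences below are from that fit, with their standard error (SE), and adjusted p-values are edgeR's unless another tool is named.

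Library totals at E10.5 ran from 22.2 to 24.2 M counts in Del(i9-13) and from 19.3 to 25.7 M in the 9 others. Del(i9-13) replicate 1 stood apart from its group. Its counts differed from those of replicates 2 and 3 by a chi-square over its degrees of freedom of 50.8 and 34.6, against 10.3 between replicates 2 and 3. The summed level of 14 visceral endoderm genes was 2364, 395 and 356 CPM in the Del(i9-13) libraries and 155 to 725 CPM in the others, and that of 13 tested liver bud genes 2127, 422 and 376 CPM, against 46.1 to 685 CPM. The liver gene Alb was at 0.0801, 15.6 and 16 CPM in the Del(i9-13) libraries and 0.0947 to 22.2 CPM in the others. Afp was at 949, 278 and 245 CPM, against 14.4 to 391 CPM. Whether the liver bud sum of Del(i9-13) replicate 1 reflects liver tissue was not tested. Xist exceeded 100 CPM in 2 Del(i9-13) libraries, in 2 of Del(i9-13):Hoxb13hd, in 1 of Hoxb13hd and in 1 of wild type, so that each group held libraries of both sexes and therefore of more than 1 embryo. Of the forebrain and eye genes checked, Six3 had no counts in any E10.5 library and Otx2 and Rax reached at most 0.186 CPM, while trunk Hox genes such as Hoxa7 and Hoxc8 were present at 19.5 to 50.6 CPM in all 12 libraries.

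Del(i9-13) was called against the other genotypes for 246 of 17202 genes (1.43%), 104 of them higher (0.605%) and 142 lower (0.825%). All 3 Del(i9-13) libraries lay apart at 551 genes (3.2%), of which 244 lay above (1.42%) and 307 below (1.78%). The genes that were both called and apart numbered 151 (0.878%), 55 higher (0.32%) and 96 lower (0.558%), and these 151 are described here. Their differences were mostly small. The median log2 difference was 0.55 for the 55 higher genes and -0.37 for the 96 lower genes, and 9 of the 55 and 16 of the 96 reached an absolute log2 difference of 1.

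The rule for lying apart is a threshold on single libraries. Pdia4 was just inside it, with 372 to 386 CPM in Del(i9-13) and a highest value of 370 CPM elsewhere, and so was Ncbp2, with 90 to 111 CPM in Del(i9-13) and a lowest value of 111.3 CPM elsewhere. Rbm5 was just outside, with 162.1 to 184 CPM in Del(i9-13) and a highest value of 162.2 CPM elsewhere. The same count for each of the other genotypes set against the rest gave 25 genes called and apart for Del(i9-13):Hoxb13hd (0.145%), 649 for Hoxb13hd (3.77%) and 46 for wild type (0.267%).

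The 3 pairwise comparisons were uneven. Del(i9-13) differed at 156 genes from Del(i9-13):Hoxb13hd (0.907%), at 1153 genes from Hoxb13hd (6.7%) and at 84 genes from wild type (0.488%). These comparisons share the 3 Del(i9-13) libraries. Of the 55 higher genes, 27 were called against Del(i9-13):Hoxb13hd, 42 against Hoxb13hd and 17 against wild type. Of the 96 lower genes the numbers were 46, 84 and 29. A total of 29 genes (0.169%) were called against each of the 3 genotypes in the same direction, 11 higher (0.0639%) and 18 lower (0.105%). Without the Hoxb13hd libraries, a choice made after the data were seen, 63 of the 151 genes kept their call. Of the 151, 36 kept it in each of the 12 fits that left out 1 library. Treating the 9 other libraries as 1 group, which counts the differences among them as spread, gave 54 calls, and Hoxb9, Pop4, Dnajc3, Axin2 and Noc2l were not called in that fit (adjusted p from 0.0693 to 0.153). Leaving out Del(i9-13) replicate 1 raised the number of called genes to 1822, with 242 of the 246 among them. Leaving out Del(i9-13) replicate 2 or 3 reduced it to 74 and 87.

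The HoxB cluster came first among the genes examined. Hoxb13 (chromosome 11, 96194316 to 96197447, mm10) measured 10.8, 5.89 and 12.2 CPM in Del(i9-13), against 11.3, 12 and 9.9 CPM in Del(i9-13):Hoxb13hd, 0, 0.0473 and 0.106 CPM in Hoxb13hd and 1.13, 0.127 and 0.0421 CPM in wild type. It was called higher, with a log2 difference of 3.92 (SE 0.468, adjusted p = 0.002). That value averages uneven differences. They were -0.20 against Del(i9-13):Hoxb13hd (adjusted p = 0.865), 7.47 against Hoxb13hd (adjusted p = 0.00222) and 4.49 against wild type (adjusted p = 0.0074). The call was lost with the 9 other libraries as 1 group and without the Hoxb13hd libraries. The 3 Del(i9-13) libraries lay above the Hoxb13hd and wild-type libraries and overlapped with those of Del(i9-13):Hoxb13hd, so Hoxb13 is not among the genes apart. Gm53, a transcript between Hoxb9 and Hoxb13, had 0 counts in all libraries of Del(i9-13) and Del(i9-13):Hoxb13hd, against 652, 1076 and 1041 counts in Hoxb13hd and 521, 441 and 371 counts in wild type.

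Hoxb9, the nearest Hox neighbour of Hoxb13, was lowest in Del(i9-13). Its level (chromosome 11, 96271457 to 96276595, mm10) was 59.3, 50.3 and 52.3 CPM in Del(i9-13), against 72.9, 70.2 and 66.6 CPM in Del(i9-13):Hoxb13hd, 95.1, 125 and 124 CPM in Hoxb13hd and 90.8, 99.5 and 82.7 CPM in wild type, a log2 difference of -0.74 (SE 0.0902, adjusted p = 0.00106). The 3 Del(i9-13) libraries were the lowest of the 12, and the call held when any single library was left out. Against Del(i9-13):Hoxb13hd alone the log2 difference was -0.37 (adjusted p = 0.11). At the far end of the cluster, Hoxb1, which marks part of the hindbrain and early posterior tissue, was also called and apart below, with 4.17, 3.71 and 4.14 CPM in Del(i9-13), against 6.63, 6.28 and 6.43, then 11, 8.14 and 10.9 and 4.44, 5.51 and 5.81 CPM in Del(i9-13):Hoxb13hd, Hoxb13hd and wild type, and a log2 difference of -0.80 (SE 0.127, adjusted p = 0.00712). Against wild type alone the log2 difference of Hoxb1 was -0.39 (adjusted p = 0.425), and its call was lost without the Hoxb13hd libraries (adjusted p = 0.111) and without Del(i9-13) replicate 2 (adjusted p = 0.0678). None of the 7 other HoxB genes tested was called, and their log2 differences ran from -0.32 (Hoxb6) to 0.19 (Hoxb7).

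The Hox genes of groups 10 to 13 in the other clusters did not pass the test. A list of 11 of them, with the neighbouring Evx2 and the long noncoding RNA Hotair, had 13 negative log2 differences of 13 tested, that of Hoxa11 near 0. The median was -0.55, beside 0.02 over all genes tested. An unadjusted p under 0.05 was reached by 3 of the 13, beside 3083 of all 17202 genes tested, and DESeq2 called 1 lower. Without Del(i9-13) replicate 2 the median was -0.09 with 9 of 13 negative, and without replicate 1 it was -0.80 with 2 called lower. The paralogs of Hoxb13 gave -0.55 (SE 0.483, adjusted p = 0.613) for Hoxa13, -1.09 (SE 0.459, adjusted p = 0.233) for Hoxc13 and -0.11 (SE 0.211, adjusted p = 0.838) for Hoxd13. Hoxa13 had 111, 7 and 126 counts in Del(i9-13), and its log2 difference was -0.02 without replicate 2, the library of 7 counts. Hoxc13 reached -2.39 (adjusted p = 0.00596) without replicate 1. The summed level of the list was 146, 71.5 and 132 CPM in Del(i9-13) and 113 to 169.6 CPM in the others, with Del(i9-13) replicate 2 the lowest of the 12.

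**Figure D1:**
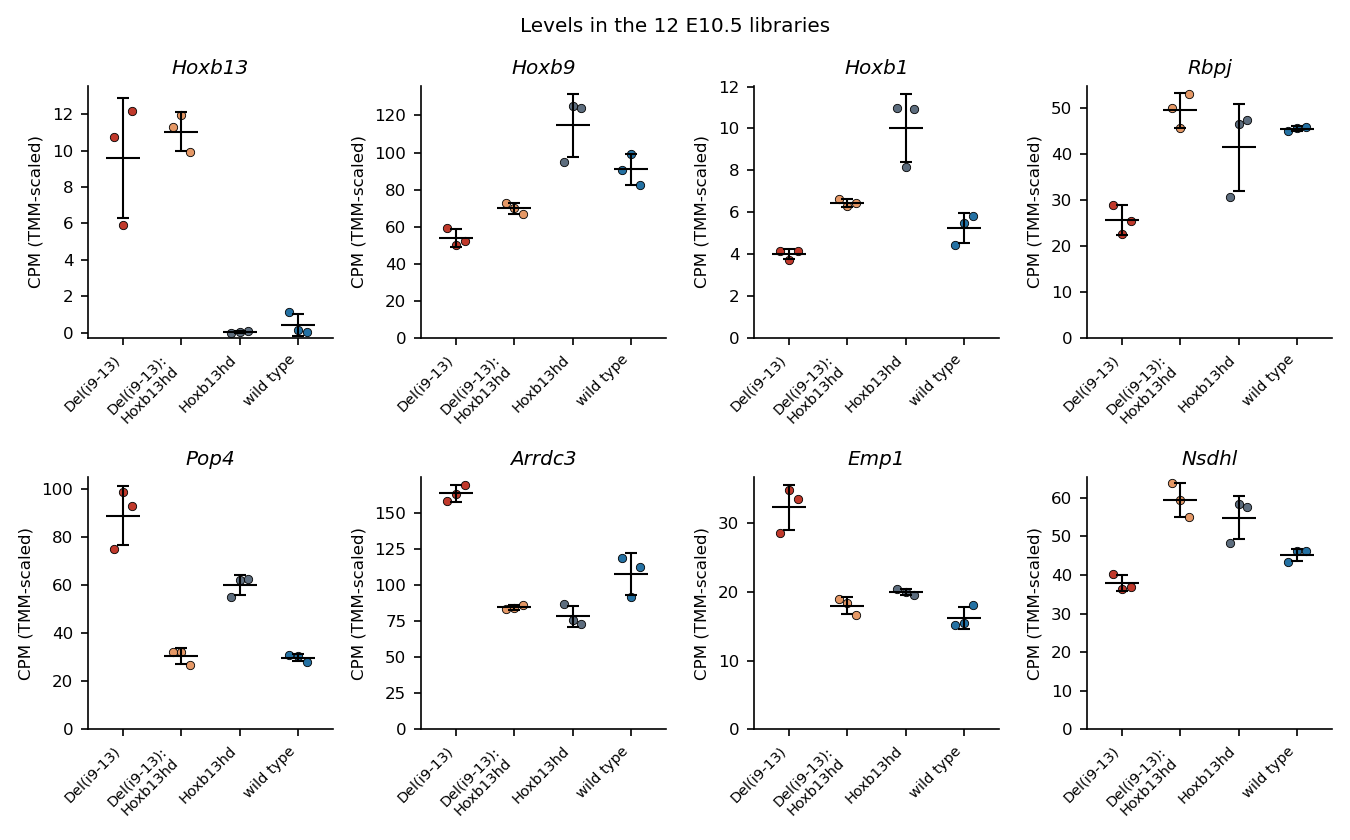
Levels of 8 genes in the 12 E10.5 libraries, in TMM-scaled CPM, with a point per library and the mean ± SD of each genotype. Hoxb13 is high in both genotypes that carry the deletion, while the 3 Del(i9-13) points lie below all others for Hoxb9, Hoxb1, Rbpj and Nsdhl, and above all others for Pop4, Arrdc3 and Emp1.

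Among the higher genes called and apart that have a symbol of their own and reach 1 CPM, the greatest log2 difference was that of Pop4, which encodes a protein subunit of RNase P and RNase MRP, the enzymes that trim precursors of tRNA and ribosomal RNA. Rps18-ps6, Glo1-ps and H2-Bl, described below, had greater differences but were not counted as having a symbol of their own. Pop4 (chromosome 7, 38261996 to 38271423, mm10) measured 75.2, 98.6 and 92.9 CPM in Del(i9-13), against 32.3, 32.4 and 26.8 CPM in Del(i9-13):Hoxb13hd, 55.2, 62.4 and 62.6 CPM in Hoxb13hd and 30.9, 30.6 and 28.2 CPM in wild type. The log2 difference was 1.23 (SE 0.0806, adjusted p = 4.54e-06). Levels in Hoxb13hd were intermediate and did not overlap with those of any other genotype. The 12 other subunit genes tested, which include the RNA components Rmrp and Rpph1, were not called, with log2 differences between -0.02 and 0.39. At E9.5 Pop4 was not called either (0.58, adjusted p = 0.62).

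Arrdc3 and Emp1 rose in every Del(i9-13) library and kept their calls under all alternatives tried. Arrdc3, an arrestin-like adaptor involved in receptor trafficking, had 158, 163 and 169.6 CPM in Del(i9-13), against 83.2, 84.4 and 86.5 CPM in Del(i9-13):Hoxb13hd, 86.7, 75.6 and 73.1 CPM in Hoxb13hd and 119, 91.5 and 113 CPM in wild type. Emp1, a small membrane protein related to peripheral myelin protein, had 28.6, 34.8 and 33.6 CPM in Del(i9-13), against 18.9, 18.4 and 16.7, then 20.4, 20.03 and 19.6 and 15.1, 15.5 and 18 CPM in the genotypes in the same order. Their log2 differences were 0.87 (SE 0.0705, adjusted p = 3.37e-05) and 0.84 (SE 0.0762, adjusted p = 8.27e-05). The lowest Del(i9-13) library lay well above the highest of the other 9 for both genes.

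Bcl2l12, a relative of the Bcl-2 apoptosis regulators, was higher by 0.73 (SE 0.0708, adjusted p = 0.000136) on the log2 scale, with 28.6, 32.5 and 30.3 CPM in Del(i9-13) and 15.4 to 24.3 CPM in the others. It overlaps Gm15545 in the annotation, and the strand setting of the counting is not given. Dgke, a diacylglycerol kinase, was higher by 0.68 (SE 0.0806, adjusted p = 0.000793), with 19.6, 18.4 and 19.1 CPM in Del(i9-13) and 10.2 to 13.9 CPM in the others. Zinc finger genes with a Zfp symbol supplied 6 of the 55 higher genes and 1 of the 96 lower genes, with 372 such symbols tested. Of all 17202 genes tested, 0.32% were called and apart higher and 0.558% lower. The median log2 difference of the Zfp genes was 0.05, beside 0.02 over all genes tested. Zfp518a (0.43 (SE 0.0464, adjusted p = 0.000352)) and Zfp810 (0.65 (SE 0.0895, adjusted p = 0.00249)) kept their calls in every alternative.

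Chl1, which encodes a neural cell adhesion molecule of the L1 family, was the 1 gene called and apart above that was also called higher at E9.5. At E10.5 it measured 14.4, 10.2 and 13.5 CPM in Del(i9-13), against 7.56, 7.14 and 8.73 CPM in Del(i9-13):Hoxb13hd, 6.2, 5.82 and 6.02 CPM in Hoxb13hd and 7.8, 6.44 and 6.19 CPM in wild type (0.89 (SE 0.113, adjusted p = 0.00127)). At E9.5 it measured 13, 8.56 and 11 CPM in Del(i9-13), against 3.84, 4.55 and 2.95 CPM in wild type (1.52, SE 0.201, adjusted p = 0.0194). None of the 19 other spinal cord genes listed was called. Scg5, which encodes the neuroendocrine chaperone 7B2, had 5.41, 8.83 and 7.22 CPM in Del(i9-13) and 3.05 to 4.73 CPM in the others (0.88 (SE 0.149, adjusted p = 0.0113)).

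Muscle genes gave a single called gene among 17 somite and muscle markers. Acta1, skeletal muscle actin, was higher (0.79 (SE 0.137, adjusted p = 0.0138)) but overlapped, with 26.6, 37.6 and 33.9 CPM in Del(i9-13) and 12.1 to 28.3 CPM in the others. Outside that list, Tnnt3, fast skeletal troponin T, was called and apart above (0.73 (SE 0.131, adjusted p = 0.0157)). Mecom, a zinc finger transcription factor, had 145 to 177 CPM in Del(i9-13) and 85.9 to 144 CPM in the others (0.50 (SE 0.0922, adjusted p = 0.0194)).

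**Figure D2:**
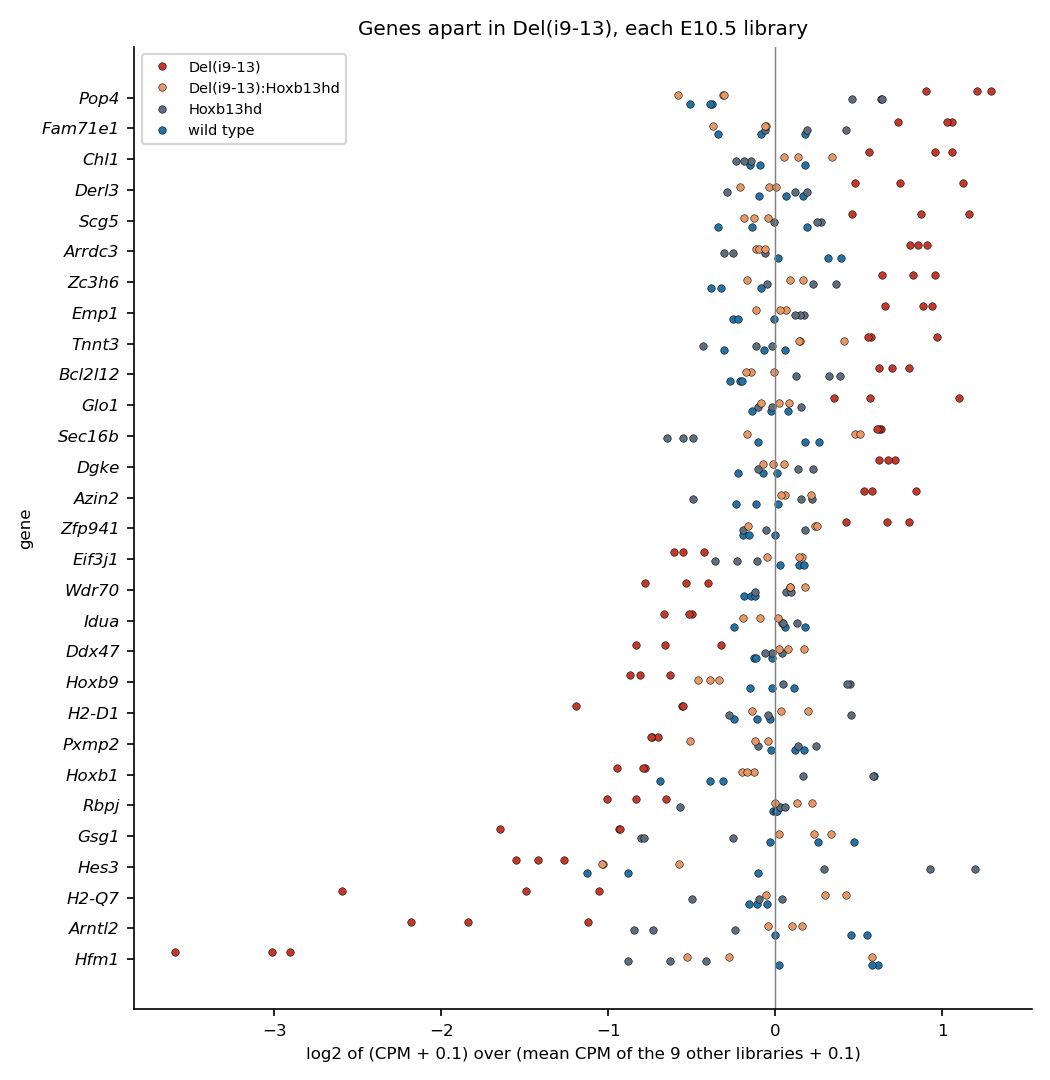
Each point is 1 E10.5 library, placed by the log2 ratio of its CPM plus 0.1 to the mean of the 9 other libraries plus 0.1, for 15 higher and 14 lower genes with great log2 differences among those called and apart that have a name of their own. The red Del(i9-13) points lie to 1 side of all points of Del(i9-13):Hoxb13hd (orange), Hoxb13hd (grey) and wild type (blue), which is the rule that chose the genes, and their spread runs from narrow (Arrdc3, Emp1) to wide (Arntl2, H2-Q7).

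Genes of protein folding in the endoplasmic reticulum (ER) were found among the higher genes. BiP (Hspa5) and its partners fold secreted proteins, and in the unfolded protein response the factors ATF6 and XBP1 raise them through the ER stress element of their promoters. A list of 30 such genes, chosen after the values were seen, had 7 members called higher and 0 lower, 10 apart above, and a median log2 difference of 0.16, beside 0.02 over all genes tested. The calls numbered 11 higher and 1 lower without Del(i9-13) replicate 1, and 2 higher without replicate 2 or 3. The summed level of the list was 8274, 8413 and 8331 CPM in Del(i9-13), against 7708, 7917 and 7449 CPM in Del(i9-13):Hoxb13hd, 7323, 7568 and 7315 CPM in Hoxb13hd and 8096, 8186 and 8015 CPM in wild type. The 3 Del(i9-13) sums were the highest, and wild type came nearest.

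The upstream sequences of 4 of the 7 called genes hold the ER stress element, CCAAT followed after any 9 bases by CCACG, searched on both strands in the 250 bases before the gene start, and are shown because this is the element the pathway is known for. They are from RefSeq on GRCm38.p6, 5′ to 3′, with the element in capitals (for Creld2 and Derl3 it lies on the reverse strand), and cover chr2:34771840-34772089, plus strand for Hspa5, chr15:88819396-88819645, plus strand for Creld2, chr14:118937682-118937931, plus strand for Dnajc3 and chr10:75893148-75893397, plus strand for Derl3.
Hspa5: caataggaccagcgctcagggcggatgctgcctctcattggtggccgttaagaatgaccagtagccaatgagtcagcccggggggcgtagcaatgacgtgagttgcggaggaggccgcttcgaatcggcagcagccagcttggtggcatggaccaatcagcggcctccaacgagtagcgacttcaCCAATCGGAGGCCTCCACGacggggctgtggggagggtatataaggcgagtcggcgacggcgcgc
Creld2: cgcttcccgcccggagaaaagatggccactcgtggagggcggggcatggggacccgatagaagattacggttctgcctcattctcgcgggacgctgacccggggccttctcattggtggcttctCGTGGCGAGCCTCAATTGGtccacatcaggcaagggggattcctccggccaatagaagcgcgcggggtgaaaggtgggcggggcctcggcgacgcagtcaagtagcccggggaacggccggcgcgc
Dnajc3: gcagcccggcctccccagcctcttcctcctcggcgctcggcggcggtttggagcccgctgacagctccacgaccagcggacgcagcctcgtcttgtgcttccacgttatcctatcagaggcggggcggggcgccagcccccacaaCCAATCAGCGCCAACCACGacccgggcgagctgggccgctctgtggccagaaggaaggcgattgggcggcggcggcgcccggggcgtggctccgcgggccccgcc
Derl3: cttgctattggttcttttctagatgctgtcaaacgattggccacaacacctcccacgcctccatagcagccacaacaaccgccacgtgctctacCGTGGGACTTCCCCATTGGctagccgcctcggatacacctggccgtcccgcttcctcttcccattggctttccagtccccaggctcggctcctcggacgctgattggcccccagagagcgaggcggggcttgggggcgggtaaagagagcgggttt
Among the 11935 tested genes with an upstream sequence, 19 (0.159%) hold the element. The share was 9 of 26 (34.6%) in the list of ER genes, called or not. Calr, Canx, Hsp90b1, Pdia6 and Syvn1 of the list hold the element and were not called. Of the 43 higher genes called and apart with a sequence, 4 hold it (9.3%), beside 0 of the 72 lower ones. These 4 are the genes shown above, from a list chosen after the values were seen, so this share is not a separate result. Whether the element acted in these embryos was not tested. Pdia4 and Selenos, both called, have no match in this window, and Manf had no upstream sequence in the table used. Other motifs were searched in the same window. The sterol element TCACNCCAC was in 1 of 16 cholesterol synthesis genes with a sequence, beside 1.27% of all. The posterior Hox motif CAATAAA was in 2 of the 43 higher and 1 of the 72 lower genes, beside 2.86% of all. The posterior Hox motif TCGTAAA was in 0 of either, beside 0.67% of all.

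Dnajc3 and Creld2 were the 2 of the 7 calls that held in each fit that left out 1 library. Dnajc3, a co-chaperone of BiP that also inhibits the kinase PERK, had 148, 148 and 148 CPM in Del(i9-13), against 114, 113 and 111 CPM in Del(i9-13):Hoxb13hd, 105, 112 and 107 CPM in Hoxb13hd and 137, 141 and 128 CPM in wild type (0.33 (SE 0.0443, adjusted p = 0.00219)). Creld2, an ER-resident disulfide isomerase-like protein, had 57.2, 64.5 and 62.6 CPM in Del(i9-13), against 44.1, 47.3 and 43.1, then 42.1, 47.2 and 46.6 and 46.6, 50.1 and 47.2 CPM in the others in that order (0.42 (SE 0.0578, adjusted p = 0.00264)). Both also kept their calls without the Hoxb13hd libraries, and Creld2 but not Dnajc3 (adjusted p = 0.153) with the 9 other libraries as 1 group.

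Hspa5 itself was the most abundant of the 7. It had 1361, 1465 and 1447 CPM in Del(i9-13), against 1171, 1239.9 and 1116 CPM in Del(i9-13):Hoxb13hd, 1009, 1109 and 1081 CPM in Hoxb13hd and 1337, 1348 and 1278 CPM in wild type (0.27 (SE 0.0544, adjusted p = 0.0322)). The gap to wild type was narrow. The remaining calls were the folding factors Pdia4 (0.23) and Manf (0.32), and the degradation factors Selenos (0.30) and Derl3 (0.88), whose adjusted p ran from 0.0393 to 0.0497. Edem1, Eif2ak3 and Dnajb11 were apart above without being called (adjusted p = 0.0572, 0.0859 and 0.119).

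Against single genotypes the ER genes differed unevenly. Of the 30, 8 were called higher than in Hoxb13hd, 3 higher than in Del(i9-13):Hoxb13hd and 0 higher than in wild type, with median log2 differences of 0.21, 0.17 and 0.08. Without the Hoxb13hd libraries 2 of the 7 calls held. At E9.5 none of the 30 was called and the median was -0.09.

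Del(i9-13) had lower levels of several cholesterol synthesis genes. The cell makes cholesterol from acetyl-CoA through a chain of enzymes that SREBP2 switches on together. Of 24 genes of this pathway, 5 were called lower and 0 higher, 7 lay apart below, 21 had a negative log2 difference and the median was -0.13. The calls numbered 7 without Del(i9-13) replicate 1, 1 without replicate 2, and 2 without replicate 3 or without the Hoxb13hd libraries. The summed level was 2537, 2569.7 and 2558 CPM in Del(i9-13), against 2938, 2999 and 2859 CPM in Del(i9-13):Hoxb13hd, 2764, 2826 and 2899 CPM in Hoxb13hd and 2799, 2818 and 2842 CPM in wild type. All 3 Del(i9-13) sums lay below the other 9 and close to each other. Against single genotypes, 5 of the 24 were called lower than in Hoxb13hd, 4 than in Del(i9-13):Hoxb13hd and 1 than in wild type.

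Nsdhl and Lss were among the enzymes called. Nsdhl, which removes a methyl group from the sterol ring, had 40.3, 36.4 and 36.9 CPM in Del(i9-13) and 43.3 to 63.8 CPM in the others (-0.48 (SE 0.0716, adjusted p = 0.00466)). Lss, lanosterol synthase, had 83, 76.5 and 74.1 CPM in Del(i9-13) and 84.8 to 96.7 CPM in the others (-0.26 (SE 0.0515, adjusted p = 0.0306)). Cyp51, Sqle and Idi1 lay apart below without being called.

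The list of fatty acid synthesis gave 2 calls. The desaturases Scd1 and Scd2, which place a double bond in stearoyl-CoA, were called lower, of 12 genes in a list chosen after the values were seen, whose median was -0.14. The calls numbered 6 without Del(i9-13) replicate 1, and 1 without replicate 2, without replicate 3 or without the Hoxb13hd libraries. Scd1 had 109, 111 and 105 CPM in Del(i9-13), against 136, 137 and 131 CPM in Del(i9-13):Hoxb13hd, 130.3, 135 and 133 CPM in Hoxb13hd and 131, 144 and 145 CPM in wild type (-0.33 (SE 0.0475, adjusted p = 0.00374)), and its call held in every alternative. Scd2 had 1274, 929 and 992 CPM in Del(i9-13) and 1288 to 1495 CPM in the others (-0.39 (SE 0.0849, adjusted p = 0.044)), with replicate 1 nearest to the other genotypes.

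**Figure D3:**
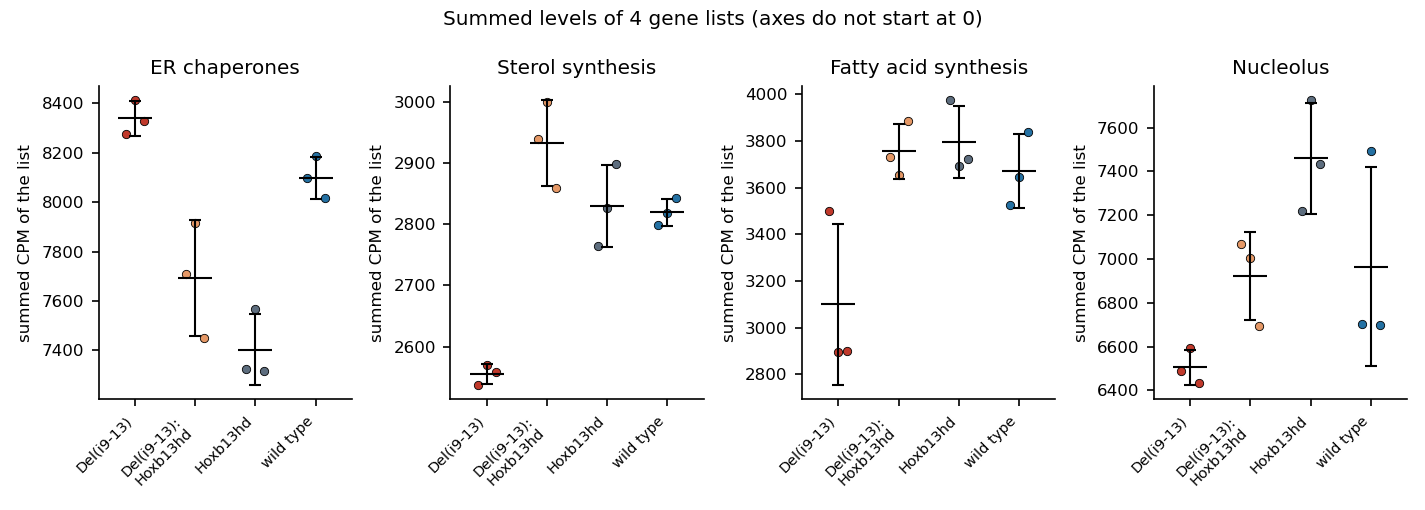
Summed TMM-scaled CPM of 4 gene lists in each E10.5 library, with a point per library and the mean ± SD per genotype, on axes that do not start at 0. The 3 Del(i9-13) points are the highest for the ER chaperones (8274 to 8413 CPM) and the lowest for sterol synthesis, fatty acid synthesis and the nucleolus, and the sums weigh abundant genes most.

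Genes of ribosome assembly in the nucleolus formed the next lower group. RNA polymerase I makes the ribosomal RNA precursor there, and many factors process and package it. Of 30 such genes, listed after the values were seen, 10 were called lower and 0 higher, beside 142 and 104 of all 17202 genes tested. A negative log2 difference was found for 29 of the 30, beside 7945 of the 17202. The median of the 30 was -0.17, beside 0.02 over all genes tested. The calls numbered 16 without Del(i9-13) replicate 1, and 3 without replicate 2, without replicate 3 or without the Hoxb13hd libraries. The summed level was 6489, 6593 and 6433 CPM in Del(i9-13), against 7070.1, 7006 and 6693 CPM in Del(i9-13):Hoxb13hd, 7221, 7724 and 7432 CPM in Hoxb13hd and 6704, 7492 and 6701 CPM in wild type. The Del(i9-13) sums were the lowest 3 of 12, at a small distance from the lowest libraries of wild type and Del(i9-13):Hoxb13hd. Of 4 genes that hold ribosomal RNA fragments, listed after the values were seen, the summed level was 7804, 859.9 and 1180.1 CPM in Del(i9-13) and 855 to 18362 CPM in the others. These libraries overlapped, none of the 4 was called (0 with an unadjusted p under 0.05, and 0 in DESeq2), and the part of this in the nucleolar genes was not tested.

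Noc2l, Polr1b and Ddx47 kept their calls when any 1 library was left out. Polr1b, the second-largest subunit of RNA polymerase I, had 76.2, 75.2 and 64.2 CPM in Del(i9-13), against 96.5, 98.6 and 98.9 CPM in Del(i9-13):Hoxb13hd, 91.3, 95.3 and 89.4 CPM in Hoxb13hd and 105, 107 and 98.3 CPM in wild type (-0.44 (SE 0.0575, adjusted p = 0.00157)). Noc2l, a nucleolar protein of the Noc family, had 132, 125 and 122 CPM in Del(i9-13) and 150.2 to 219.8 CPM in the others (-0.45 (SE 0.0519, adjusted p = 0.000575)). Ddx47, an RNA helicase of ribosomal RNA processing, had 64.3, 45 and 50.9 CPM in Del(i9-13) and 73.6 to 90.5 CPM in the others (-0.59 (SE 0.0868, adjusted p = 0.0043)). Sdad1 was called and apart as well, and Las1l, Rrs1, Nle1, Fbl, Nolc1 and Bysl were called lower with libraries that overlapped. Against single genotypes, 14 of the 30 were called lower than in Hoxb13hd, 4 than in Del(i9-13):Hoxb13hd and 2 than in wild type, and at E9.5 the median was 0.05 with no call.

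Regulators of Wnt and Notch signalling were also among the lower genes. Axin2, a feedback inhibitor and standard readout of Wnt signalling, had 66.2, 63.2 and 62.1 CPM in Del(i9-13), against 86.5, 86.5 and 84 CPM in Del(i9-13):Hoxb13hd, 88.8, 97.7 and 105 CPM in Hoxb13hd and 75.4, 77.7 and 75.5 CPM in wild type (-0.43 (SE 0.0539, adjusted p = 0.00119)). Its call held when any 1 library was left out and without the Hoxb13hd libraries, but not with the 9 other libraries as 1 group (adjusted p = 0.0693). Of 18 Wnt feedback and target genes, listed after the values were seen, 4 were called lower (Axin2, Axin1, Snai1 and Apcdd1) and 0 higher, with a median of -0.38. The calls numbered 10 without Del(i9-13) replicate 1, and 1 without replicate 2, without replicate 3 or without the Hoxb13hd libraries, where the medians were -0.22, -0.36 and -0.18. Against single genotypes, 12 of the 18 were called lower than in Hoxb13hd, 1 than in Del(i9-13):Hoxb13hd and 0 than in wild type.

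Rbpj, the DNA-binding partner of Notch in the nucleus, kept its call in every alternative. It had 29, 22.6 and 25.5 CPM in Del(i9-13), against 50.01, 45.7 and 53.1 CPM in Del(i9-13):Hoxb13hd, 30.6, 46.5 and 47.5 CPM in Hoxb13hd and 45.1, 45.8 and 46 CPM in wild type (-0.82 (SE 0.122, adjusted p = 0.00456)). The highest Del(i9-13) library stood just below the lowest Hoxb13hd library and far below the others. At E9.5 the log2 difference from wild type was -0.95 (adjusted p = 0.0675), not called. Hes3, a repressor of the Hes family active in the neural tube, was the other Notch pathway gene called of 19 (-1.27 (SE 0.282, adjusted p = 0.0463)), at 0.841, 0.951 and 0.76 CPM in Del(i9-13) and 1.05 to 5.68 CPM in the others, and Notch1, Dll1 and Hes1 were not called. The log2 difference of Hes3 was -2.38 against Hoxb13hd (adjusted p = 0.00264), -0.59 against Del(i9-13):Hoxb13hd (adjusted p = 0.416) and -0.84 against wild type (adjusted p = 0.444), and its call was lost in 15 of 23 alternatives.

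No tail bud gene passed the test in edgeR, although all 22 listed had a negative log2 difference, with a median of -0.42 beside 0.02 over all genes tested. At an unadjusted p under 0.05 there were 12 of the 22, beside 3083 of all 17202 genes tested. DESeq2, which called more genes in all, called 5 lower, and edgeR called 2 lower without Del(i9-13) replicate 1. Gdf11, a signal that ends trunk formation, lay apart below, at 65.8, 62.6 and 66.2 CPM in Del(i9-13) and 66.7 to 81.3 CPM in the others (-0.20 (SE 0.0631, adjusted p = 0.13)). T (Brachyury), which drives mesoderm formation in the tail bud, had 9.05, 6.38 and 7.09 CPM in Del(i9-13), against 9.77, 12.2 and 10.4 CPM in Del(i9-13):Hoxb13hd, 16.1, 24.6 and 24.4 CPM in Hoxb13hd and 12.1, 12.4 and 2.74 CPM in wild type (-0.77 (SE 0.365, adjusted p = 0.305)). Its Hoxb13hd libraries were high, and those of Del(i9-13) and wild type overlapped. The median of the list was -0.85 against Hoxb13hd, -0.26 against Del(i9-13):Hoxb13hd and -0.18 against wild type, with 14 genes called in the first comparison and 0 in either of the others. At E9.5 the sign was the other way for most of the list, with 18 of 21 genes positive, a median of 0.22 and no call. In RNA of whole embryos without the head, fewer cells of a type and less RNA per cell cannot be told apart.

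A few glycolysis genes were called lower. Of 18 genes of hypoxia and glycolysis, 4 were called lower (Pfkl, Gapdh, Slc2a1 and Eno1) and 0 higher, with a median of -0.17. Gapdh, the enzyme often used as a loading control, had 602, 601 and 836 CPM in Del(i9-13) and 859 to 1018 CPM in the others (-0.45 (SE 0.0945, adjusted p = 0.0405)). The glucose transporter gene Slc2a1 had 216, 236 and 207 CPM in Del(i9-13) and 237 to 353 CPM in the others (-0.33 (SE 0.0737, adjusted p = 0.0457)). Without the Hoxb13hd libraries none of the 4 calls held, and 1 gene of the list was called without Del(i9-13) replicate 2 or 3.

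Some of the steepest decreases were in genes with few counts. Hfm1, a DNA helicase of meiotic crossing over, had 7, 3 and 6 counts in the Del(i9-13) libraries, against 51, 48 and 96 in Del(i9-13):Hoxb13hd, 31, 43 and 33 in Hoxb13hd and 94, 66 and 99 in wild type (-3.51 (SE 0.36, adjusted p = 0.000197)). It was the 1 gene called of 14 meiosis genes tested, and at E9.5 it was not called (0.61, adjusted p = 0.89). Arntl2, a paralog of the clock factor BMAL1, had 10, 16 and 7 counts in Del(i9-13), against 43, 42 and 42 in Del(i9-13):Hoxb13hd, 21, 30 and 17 in Hoxb13hd and 52, 40 and 60 in wild type (-1.78 (SE 0.281, adjusted p = 0.00674)), and was the 1 gene called of 17 clock genes tested.

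The class I histocompatibility genes H2-Q7, H2-Q4 and H2-D1 were called and apart below. H2-Q7 had 1.28, 0.543 and 1.77 CPM in Del(i9-13) and 2.65 to 5.13 CPM in the others (-1.64 (SE 0.265, adjusted p = 0.00817)) and kept its call in every alternative, while H2-Q4 and H2-D1 lost theirs in 15 and 16 of 23 alternatives. In the opposite direction, H2-Bl was called and apart above (2.14 (SE 0.285, adjusted p = 0.00192)), at 1.36, 1.45 and 1.81 CPM in Del(i9-13) and 0.0947 to 1.05 CPM in the others, and held in each fit that left out 1 library. H2-T24 was called higher with libraries that overlapped (2.23 (SE 0.31, adjusted p = 0.00264)), at 2.36 ± 0.291 CPM in Del(i9-13), against 0.329 ± 0.151 CPM in Del(i9-13):Hoxb13hd, 0.219 ± 0.178 CPM in Hoxb13hd and 1.77 ± 0.688 CPM in wild type (SD, n = 3 each). These genes are close paralogs whose reads the counting could split, so that their values are uncertain.

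Pseudogenes were called more often than other genes. Of 481 tested, 26 were called (5.41%), beside 210 of 14340 protein-coding genes (1.46%). Rps18-ps6, a copy of the ribosomal protein gene Rps18, had 98, 285 and 127 CPM in Del(i9-13) and 0 to 0.233 CPM in the others, while Rps18 itself was called lower, at 468, 466 and 588 CPM in Del(i9-13) and 609 to 826 CPM in the others. The sum of the pair was 678 ± 98 CPM in Del(i9-13) (SD, n = 3) and 708 ± 75 CPM in the others (SD, n = 9), and its libraries overlapped. Reads of the copy and of its parent may be counted at either, and which alleles the libraries carry was not tested.

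The same sum gave other outcomes for 2 pairs. For Glo1, which encodes glyoxalase I, and its copy Glo1-ps, both were called higher, and the sum was 105, 180.4 and 122 CPM in Del(i9-13) and 71 to 86.9 CPM in the others. For the near-identical initiation factor genes Eif3j1 and Eif3j2, Eif3j1 was lower at 33, 30.3 and 29.1 CPM in Del(i9-13) and 34.5 to 49.99 CPM in the others. Eif3j2 was at 7.17, 6.65 and 5.99 CPM in Del(i9-13), against 0, 0.078 and 0.217 CPM in Del(i9-13):Hoxb13hd, 7.79, 8.1 and 9.46 CPM in Hoxb13hd and 0.0453, 0.127 and 0.168 CPM in wild type, high in Del(i9-13) and Hoxb13hd alone. Their sum stayed lowest in Del(i9-13), at 40.2, 36.9 and 35.1 CPM, against 42.3 to 50.6 CPM in the others.

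Called genes were spread unevenly over the chromosomes. On chromosome 17, 26 of 791 tested genes were called (3.29%), and on chromosome 5, 28 of 1170 (2.39%), beside 1.43% overall. Chromosome 11, which carries HoxB, had 19 of 1307 (1.45%). In windows of 10 Mb (mm10), the interval from 30 to 40 Mb of chromosome 17 held 17 called genes of 184 (9.24%). Among them were Rps18, Glo1, Aif1 and the H2 genes. The interval from 100 to 110 Mb of chromosome 5 held 10 of 88 (11.4%), with Hfm1, Idua and Gak. On chromosome 6, the interval from 130 to 140 Mb held 7 of 45 (15.6%), with Ddx47, Emp1 and Gsg1. The genetic background of the lines is not given in the labels, and linked variants were not tested.

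**Figure D4:**
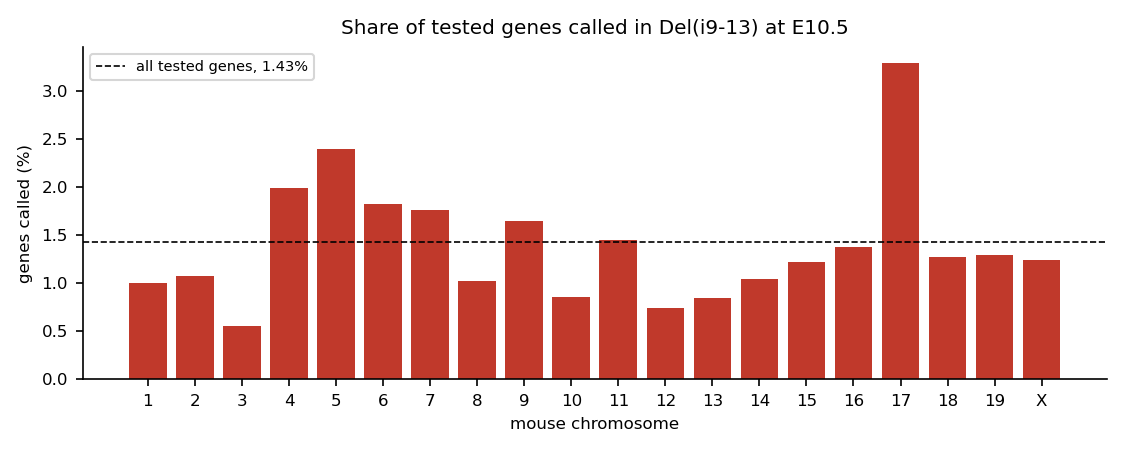
Percent of tested genes called in Del(i9-13) against the 3 other genotypes at E10.5, by chromosome, with the overall share of 1.43% as a dashed line. Chromosome 17 (3.29%) and chromosome 5 (2.39%) have the tallest bars.

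Genes of single cell types showed few calls. None of the heart, limb bud, blood, endothelium, notochord, neural crest, nephric or hindgut markers was called. Liver bud and visceral endoderm markers had positive log2 differences throughout (13 of 13 and 14 of 14, with medians of 1.76 and 2.68). None was called in edgeR. An unadjusted p under 0.05 was reached by 12 of each list, beside 3083 of all 17202 genes tested. DESeq2, which called more genes in all than edgeR, called 5 and 7 of these markers higher. Replicate 1 of Del(i9-13) had the highest summed level of both lists but the lowest Alb level of the 12 libraries, as given above. Without it the medians were 0.59 and -0.17, and 10 of the 14 visceral endoderm markers were negative. Apoc1, an apolipoprotein gene of liver and yolk sac outside both lists, was called higher but overlapped (1.23 (SE 0.243, adjusted p = 0.0279)). Listed macrophage markers were positive at 9 of 10, with a median of 0.77, 6 at an unadjusted p under 0.05 and no call in edgeR or DESeq2. Outside that list, Aif1, which encodes the macrophage protein IBA1, was called and apart above (2.23 (SE 0.357, adjusted p = 0.0073)), with 11, 14 and 14 counts in Del(i9-13) and at most 5 in any other library, and its call was lost without Del(i9-13) replicate 2 or 3 or without the Hoxb13hd libraries. Aif1 lies in the interval from 30 to 40 Mb of chromosome 17 given above, where linked variants were not tested. What the cell types of these lists contribute to the 151 genes was not tested.

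At E9.5, Del(i9-13) differed from wild type at 58 of 16041 genes (0.362%). Of the 246 genes called at E10.5, 236 were tested at E9.5 and 8 were called there in the same direction (3.39%), which is 14.3% of the 56 E9.5 calls tested at E10.5. Among the 8 were Hoxb13 and Chl1, both higher, and Hoxb9, Nsdhl, Lss, Scd1 and Scd2, all lower. Nsdhl at E9.5 measured 44.3, 43.9 and 43.1 CPM in Del(i9-13), against 71.8, 73 and 73.9 CPM in wild type (-0.74, adjusted p = 0.000883), and Scd1 measured 113, 105 and 108 CPM, against 194, 175 and 173 CPM in wild type (-0.74, adjusted p = 0.00247). Of the sterol list, 17 of 24 genes were called lower at E9.5, with a median of -0.57, against 5 and -0.13 at E10.5. The E9.5 and E10.5 comparisons share no libraries, but stage and library type coincide. Among the genes called and apart, 33 of 54 higher and 58 of 90 lower genes tested at E9.5 had the same sign there. Over all 16041 genes tested at E9.5, 8105 were positive and 7936 negative.

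**Figure D5:**
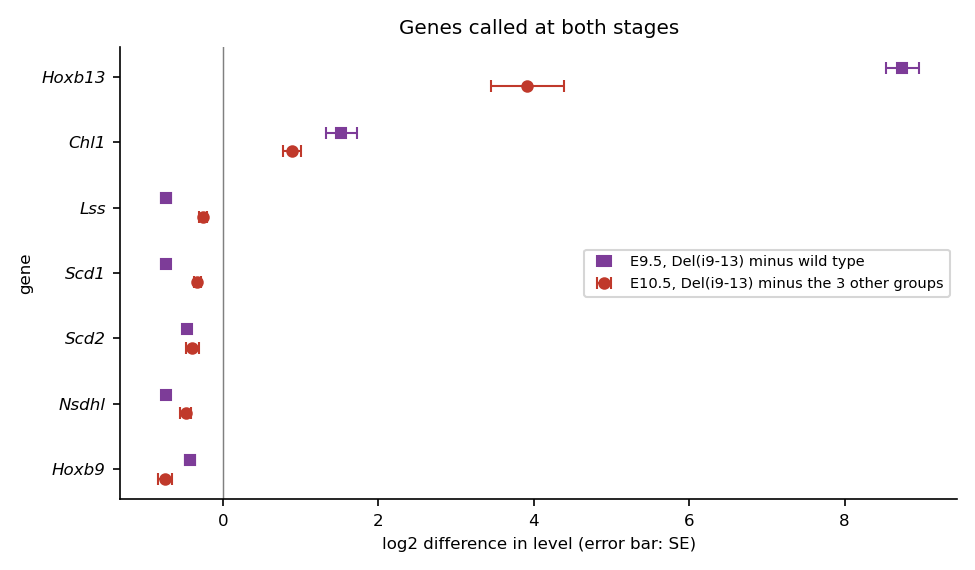
Log2 differences with SE for 7 of the genes called at both stages, at E9.5 as Del(i9-13) minus wild type (squares) and at E10.5 as Del(i9-13) minus the mean of the 3 other genotypes (circles). Hoxb13 and Chl1 lie right of 0 at both stages, and Hoxb9 and the 4 lipid synthesis genes shown lie left of 0.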

How the data were processed

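Per the submitters' processing notes, the authors used cutadapt 1.18 for trimming and STAR 2.7.10a for alignment, with mm10 as the genome build. The table deposited by the authors held read counts per Ensembl gene for 55141 genes, and a second deposited table held FPKM (fragments scaled to transcript length and library size) for 55138 genes from Cufflinks 2.2.1. No source used here gives the strand setting or the annotation of the counting, which leaves overlapping genes, pseudogenes and close paralogs uncertain. Both kits were stranded, per the labels' protocols. Groups came from sample titles, and 0 columns were left unused. Gene symbols and coordinates came from the FPKM table, and gene types from GENCODE M21, where 51299 genes had the same coordinates.

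Counts of the 12 E10.5 libraries were fitted in edgeR 4.0.16 (R 4.3.3) with filterByExpr (minimum count 10, minimum total 15), TMM scaling and a robust quasi-likelihood model. The contrast was Del(i9-13) minus the mean of the 3 other genotypes, each weighted equally. Pairwise contrasts came from the same fit, and the 6 E9.5 libraries were fitted separately. The fit was also run on simulated counts with known changes, and the outcome is not reported here. Whether a library lies apart is a description and carries no test. Totals of 19.3 to 25.7 M counts per library leave the spread between libraries, not depth, as the limit for well-expressed genes, while genes of a few counts per library are limited by depth.

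The genes and lists were chosen with earlier results of these data known. Named were Hoxb13, Hoxb9, Gm53, Hoxa13, Hoxc13 and Hoxd13, up to 15 genes each way with the greatest log2 difference among those called and apart, up to 5 each way that met 1 condition alone, and up to 3 per list by p, all with a symbol of their own and at least 1 CPM. The text describes part of these, a few are not reported here, and further genes and 8 of the 32 lists were added after their values were seen. Replicate numbers did not pair the libraries, since 4 of 18 same-numbered pairs had a correlation of deviations above 0.1. Alternatives were RLE scaling, other filters, DESeq2 1.42.0, limma 3.58.1 on log2 FPKM with a pseudocount of 0.1 or 1, a replicate block, Xist as a covariate, the other 9 libraries as 1 group, and each library left out.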

Additional observations from a re-analysis of the deposited data

Results flagged for a closer look

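For 4 of the genes examined, every Del(i9-13) library lay above every wild-type library at E10.5 and below every one at E9.5. The E10.5 effect minus the E9.5 effect, on the log2 scale, was 1.79 for Bcas1, 1.35 for Lhx2, 0.34 for Dnajc3 and 0.29 for Hspa5. The interaction test in edgeR did not pass for any of them, with adjusted p of 0.431, 0.111, 0.383 and 0.552 over 17670 genes, of which 8 passed and 1212 had an unadjusted p under 0.05. Since library type changed with stage, the 2 cannot be told apart.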

How the results depend on the processing

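The 246 calls, the 151 genes called and apart, the 29 called against each genotype and the 58 calls at E9.5 were recomputed under each alternative. With RLE scaling, without a filter at E10.5, with a filter of 1 CPM and with Xist as a covariate, the counts stayed within 1.5 times. DESeq2 gave 888, 319, 76 and 330, with 243 of the 246 and all 58 E9.5 calls among them. Limma on log2 FPKM gave 143 and 95 with a pseudocount of 0.1, 153 and 100 with 1, and 108, 76, 15 and 20 with 0.1 and no FPKM filter. Treating the 9 other libraries as 1 group gave 54 and 53. An absolute log2 difference of at least 1 left 56, and 18 at E9.5. No filter gave 537 at E9.5. Without the Hoxb13hd libraries, an alternative chosen after the data were seen, the counts were 107 and 90. The replicate block gave 190, 115, 25 and 79, and 3 of 12 libraries correlated best with their own number.

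Leaving out each library in turn gave 74 to 1822 calls, 50 to 1481 genes called and apart, 15 to 178 called against each genotype and 40 to 53 at E9.5. The lowest counts came without Del(i9-13) replicate 2 and the highest without replicate 1. The cause was not tested. Of the 151 genes, 25 held in every alternative. Hoxd13 ranged from -0.45 without Del(i9-13) replicate 3 to 0.20 without replicate 2. Genes with a few counts per library, such as Hfm1, were limited by depth.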
